A study of Mus musculus with 4 samples.

Results

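Klrg1-positive Foxp3 Tregs were selected on measured UMIs from the hepatic CD4+ T cells of WT and dKO mice: cells with at least 1 UMI of *Klrg1* and at least 1 UMI of *Foxp3*, and with 0 UMIs of *Il10*, *Il1rl1*, *Penk*, *Mki67*, *Siglech* and *Lyz2*. A UMI, or unique molecular identifier, counts each captured RNA molecule once. The rule found 789 cells among 28018 cells that passed the filters, 67 of 10556 in the library labelled WT and 722 of 17462 in the library labelled dKO. They were compared with the 1589 cells that passed the same gate but had 0 UMIs of *Klrg1*, 224 in WT and 1365 in dKO. *Klrg1* (ENSMUSG00000030114) lies on chromosome 6 of GRCm38 from 122270596 to 122282882 on the minus strand, and *Foxp3* (ENSMUSG00000039521) on chromosome X from 7573644 to 7595245 on the plus strand.

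Each library was pooled from 2 male mice given CD, a choline-deficient diet with 60 kcal% fat and 0.1% methionine, for 8 weeks, which induces steatohepatitis. The dKO mice carried floxed alleles of *Nr4a1* and *Nr4a2* with *Cd4Cre*, which acts in all cells that pass through a *Cd4*-expressing stage and so in CD8+ T cells and Tregs alike. Both groups received CD, and the files do not tell apart the mice of a pool. With 1 library per genotype no test between genotypes was possible, and genotype, pool and library preparation cannot be told apart. The deposited libraries held 23494155 and 37966611 UMIs. Over all filtered cells *Nr4a1* had 725 CPM (UMIs of a gene scaled to a common library total) in WT and 1659 CPM in dKO. *Nr4a2* had 183 and 306 CPM, so the floxed genes were not lower in the library labelled dKO. These counts do not separate the deleted exons, so they cannot check the label in either direction. The groups are therefore named below as the libraries labelled WT and dKO, shortened to WT and dKO.

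KLRG1 is an inhibitory lectin-like receptor that binds E-, N- and R-cadherin and carries an ITIM in its cytoplasmic tail. It marks terminally differentiated effector CD8+ T cells and NK cells, and among Foxp3+ Tregs it marks an activated state found mostly in non-lymphoid tissue. Naive-like and central Tregs instead carry CCR7 and TCF-1, which belong to recirculation through lymph nodes.

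The receptor sequences of the largest clones are shown first, since the share of cells with *Klrg1* differed between them. A TRB chain was read in 34 of 67 Klrg1-positive WT cells and in 216 of 722 Klrg1-positive dKO cells. In dKO, 10 clones (cells with the same TRB V gene, J gene and CDR3 bases) held at least 5 gated cells, and *Klrg1* was spread unevenly over them. The CDR3 sequences of the clone that held most Klrg1-positive cells (clone 1), of others that were mostly Klrg1-positive (clones 8 and 9) and of the 4 largest that were mostly Klrg1-negative (clones 2, 3, 5 and 6) are given 5′ to 3′. Capitals mark the bases between the start shared with at least 50% of the clonotypes of the same V gene and the end shared with at least 50% of those of the same J gene, over both libraries.
Clone 1, TRBV13-1 and TRBJ2-4: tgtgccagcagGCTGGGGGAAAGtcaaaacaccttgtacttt
Clone 1, TRAV6-1 and TRAJ30: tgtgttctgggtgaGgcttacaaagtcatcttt
Clone 2, TRBV1 and TRBJ2-1: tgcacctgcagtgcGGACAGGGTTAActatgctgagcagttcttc
Clone 2, TRAV6-7-DV9 and TRAJ49: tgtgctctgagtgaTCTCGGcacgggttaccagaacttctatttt
Clone 3, TRBV13-1 and TRBJ2-5: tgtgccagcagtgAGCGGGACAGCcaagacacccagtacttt
Clone 5, TRBV10 and TRBJ1-6: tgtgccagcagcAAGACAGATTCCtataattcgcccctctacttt
Clone 6, TRBV29 and TRBJ1-6: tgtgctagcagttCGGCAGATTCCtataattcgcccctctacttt
Clone 8, TRBV1 and TRBJ2-2: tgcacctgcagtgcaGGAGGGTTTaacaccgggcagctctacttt
Clone 9, TRBV3 and TRBJ2-3: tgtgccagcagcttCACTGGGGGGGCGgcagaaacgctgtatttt

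Clone 1 had *Klrg1* in 68 of its 77 gated cells, or 88.3% (exact Clopper-Pearson 95% interval 79.0 to 94.5). Its alpha chain was TRAV6-1 with TRAJ30 in 281 of the 281 cells of the clone with a TRA read. Clone 2 had *Klrg1* in 1 of 19 gated cells (5.26%, 0.133 to 26.0), clone 3 in 2 of 13, clone 5 in 0 of 8 and clone 6 in 0 of 7. The intervals of clones 1 and 2 do not overlap. Clones 8 and 9 each had *Klrg1* in 4 of 5 gated cells, clone 4 in 5 of 9, and clones 7 and 10 each in 1 of 5. Over clones 2 to 10 together, 18 of 76 gated cells had *Klrg1* (23.7%, 14.7 to 34.8). The median depth was 1358 UMIs in the gated cells of clone 1, 1373 in clone 2 and 1833 in clone 3.

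The clones also differed over all filtered cells, the gated ones included. In clone 1, 404 of 475 had a *Klrg1* UMI (85.1%), against 6 of 78 cells of clone 2 (7.69%), 24 of 86 cells of clone 3 (27.9%) and 1 of 32 cells of clone 5 (3.12%). *Foxp3* was read in 37.9% of the cells of clone 1, in 39.7% of those of clone 2, in 59.3% of those of clone 3 and in 37.5% of those of clone 5. Cells of a clone share their origin, and the clone was not tested as a factor.

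**Figure D1:**
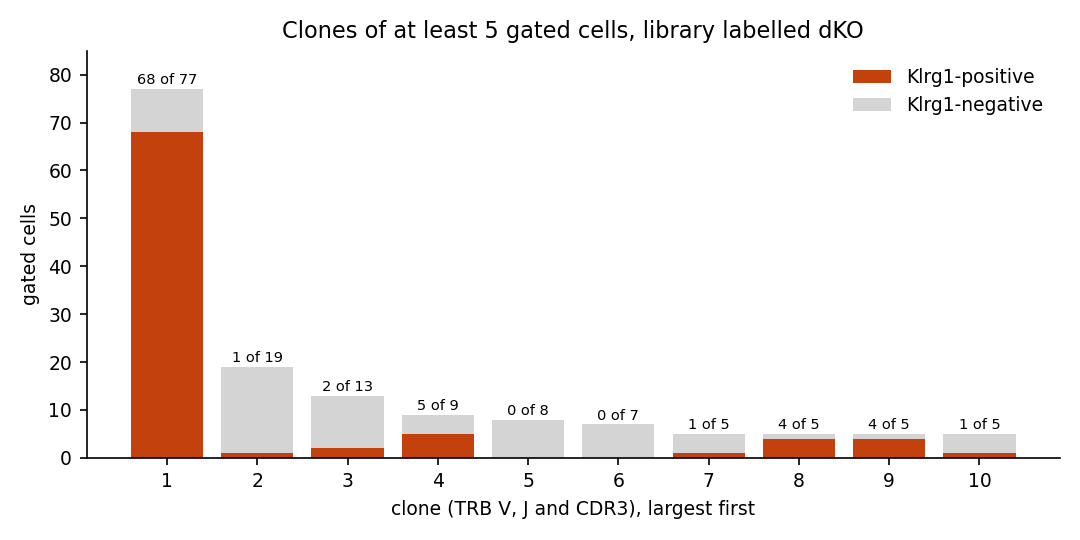
Gated cells of the 10 clones with at least 5 gated cells in the library labelled dKO, largest first; each bar stacks Klrg1-positive on the bottom and Klrg1-negative cells on top, with the count of Klrg1-positive cells above it. Clone 1 holds 68 Klrg1-positive cells of 77, and clones 5 and 6 hold none.

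Clone 1 alone made up 68 of the 216 Klrg1-positive dKO cells with a TRB chain (31.5%, 25.3 to 38.1), while the largest clone among the Klrg1-negative cells made up 18 of 387 (4.65%, 2.78 to 7.25). In WT the 34 Klrg1-positive cells with a TRB chain had 34 different clonotypes, and the 78 Klrg1-negative ones had 76. The Klrg1-positive and Klrg1-negative states also shared receptors. Of the Klrg1-positive dKO cells with a TRB chain, 50.9% (44.1 to 57.8) had a clonotype that also occurred among Klrg1-negative gated cells, and of the Klrg1-negative ones 20.7% (16.7 to 25.1) had a clonotype of the other class. Without clone 1 these shares were 28.4% of 148 and 18.8% of 378 cells, and with clonotypes told apart by both chains, clone 1 included, they were 41.5% and 8.63%. No TRB clonotype of Klrg1-positive cells occurred in both libraries, of 34 in WT and 128 in dKO. Such sharing was rare over all filtered cells as well, with 5 clonotypes in both libraries, of 2079 in WT and 2004 in dKO.

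The share of gated cells with a *Klrg1* UMI was 23.0% (18.3 to 28.3) in WT and 34.6% (32.6 to 36.7) in dKO. These intervals and all others in parentheses are exact 95% intervals and cover counting error only. The share depends on depth, and the median was 1718 UMIs in gated WT cells and 1404 in gated dKO cells. At a common depth of 1000 UMIs, drawn from the 241 WT and 1603 dKO cells that had them, the shares were 13.7% (9.62 to 18.7) and 27.6% (25.5 to 29.9). With a single cell kept for each clonotype, the one with the most UMIs, *Klrg1* was found in 34 of 109 WT cells (31.2%, 22.7 to 40.8) and in 119 of 382 dKO cells (31.2%, 26.5 to 36.1). The difference of 11.6 percentage points between all gated cells of the libraries was −0.0409 points over these cells. The kept cells were not brought to a common depth, so depth and clone size cannot be told apart in this value. This count also leaves out the cells without a TRB read. Among cells with exactly 1 TRB chain, with every cell of a clonotype kept, the shares were 30.8% and 35.8%, a difference of 4.97 points. Cells with *Foxp3* but also *Il10*, which the gate leaves out, had *Klrg1* at 54.1% of 37 cells in WT and 54.5% of 792 cells in dKO, and those with *Il1rl1* at 54.9% of 144 and 59.0% of 400. These cells were deeper, with medians of 2974 and 2007 UMIs for *Il10* and of 2960.5 and 2517 for *Il1rl1*. After thinning to 1000 UMIs the shares were 34.3% and 36.9% with *Il10* and 33.3% and 37.0% with *Il1rl1*, above those of the gated cells in both libraries.

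*Klrg1* was also found in cells that should lack it, and free RNA and doublets were not told apart there. Among cells with at least 5 UMIs of *Siglech*, a plasmacytoid dendritic cell gene, *Klrg1* was found in 0.828% of 725 WT cells (median 3667 UMIs) and in 6.13% of 2739 dKO cells (median 3260 UMIs). Cells with at least 5 UMIs of *Lyz2*, a myeloid gene, had it at 1.20% in WT and 10.5% in dKO. Thinned to 1000 UMIs, these background shares were 0% for both in WT, where 0 of 702 and 0 of 220 cells have exact upper limits of 0.524% and 1.66%, and 2.37% and 2.62% in dKO. The thinned share in gated cells stood above this background in both libraries, and a Klrg1-positive cell with a single UMI may still be a background cell.

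**Figure D2:**
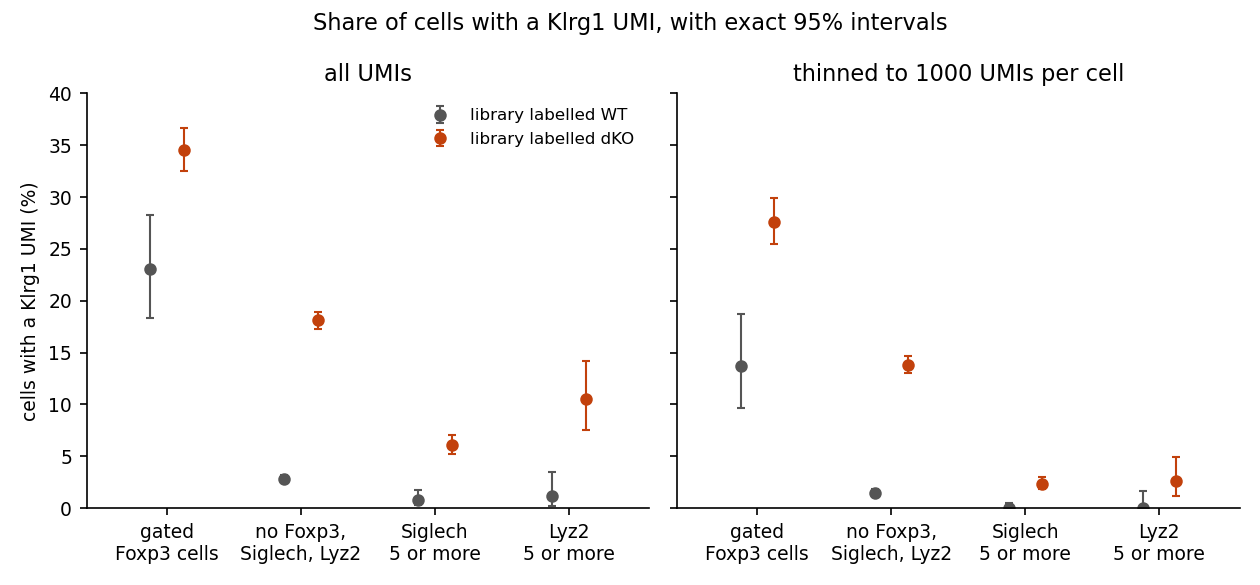
Share of cells with a *Klrg1* UMI in percent for gated Foxp3 cells, for cells with none of *Foxp3*, *Siglech* and *Lyz2*, and for cells with at least 5 UMIs of *Siglech* or of *Lyz2*, with exact 95% intervals, before (left) and after (right) thinning to 1000 UMIs per cell. Gated cells have the highest share in both libraries, 13.7% and 27.6% after thinning.

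*Klrg1* and *Foxp3* chose the cells, so their levels are given as a description. *Klrg1* had 683 CPM (569 to 814) in the WT and 1213 CPM (1155 to 1273) in the dKO Klrg1-positive cells. Most cells held few UMIs of it: 35 of 67 WT cells and 317 of 722 dKO cells had exactly 1, and 12 and 242 had at least 3, with a maximum of 9 and 11. *Foxp3* was at 624 CPM (515 to 749) in Klrg1-positive and 749 CPM (671 to 834) in Klrg1-negative WT cells, and at 873 CPM (824 to 925) and 957 CPM (917 to 998) in dKO. A cell with 0 UMIs of *Klrg1* may have had *Klrg1* RNA that was not captured, which brings the compared classes closer together.

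The label's other markers, *Nkg7* and *Ccl5*, were found in both classes and, at lower levels, in cells of other kinds. Summed, they were at 1345 CPM in Klrg1-positive WT and 4636 CPM in Klrg1-positive dKO cells. Cells with at least 5 UMIs of *Siglech* had 349 CPM in WT and 697 CPM in dKO. Cells with at least 5 UMIs of *Lyz2* had 689 and 1967 CPM. *Nkg7*, a cytotoxic granule protein, was at 266 CPM in Klrg1-positive and 301 CPM in Klrg1-negative WT cells, and at 524 and 593 CPM in dKO. *Ccl5*, the chemokine RANTES, was at 1079 and 1050 CPM in WT and at 4112 and 4792 CPM in dKO. With edgeR's quasi-likelihood test on the 4 sums, the log2 difference of Klrg1-positive over Klrg1-negative cells was −0.17 (SE 0.111, adjusted p = 0.846) for *Nkg7* and −0.12 (SE 0.0803, adjusted p = 0.839) for *Ccl5*. Thinned to 1000 UMIs, *Nkg7* was found in 20.3% of Klrg1-positive and 19.2% of Klrg1-negative WT cells and in 29.1% and 27.7% in dKO, and *Ccl5* in 33.9% and 29.1% in WT and in 68.0% and 68.2% in dKO. Neither gene was called in either direction, so the cells are called here by the rule and not by these 2 genes.

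The other markers of Tregs and T cells stood above their level in cells with at least 5 UMIs of *Siglech* or *Lyz2*. Of the 11 Treg markers other than *Foxp3*, 10 were found in Klrg1-positive WT cells and 11 in Klrg1-positive dKO cells, with summed levels of 4502 and 6967 CPM against 3944 and 6835 CPM in Klrg1-negative cells. The 10 T cell markers were all found, at 5462 to 7752 CPM over the 4 sums. Cells with at least 5 UMIs of *Siglech* or *Lyz2* held 10 of the Treg markers in WT, 11 in dKO and all 10 T cell markers. Their levels were 551 to 1458.5 CPM for the Treg and 1006 to 1991 CPM for the T cell markers. The levels, and not the numbers found, thus set the gated cells apart. Of the 2 CD8 T cell markers *Cd8a* was at 0 in all 4 sums, and the other, *Cd8b1*, was at 16.3 and 11.1 CPM in WT and at 24.3 and 20.6 CPM in dKO. The NK markers had 10.8 CPM in Klrg1-positive and 221 CPM in Klrg1-negative WT cells, where 1 and 7 of 7 were found, and 33.8 and 42.6 CPM in dKO. The NKT markers had 54.2 and 212 CPM in WT and 21.3 and 42.2 CPM in dKO. Myeloid markers had 228 and 366 CPM in WT and 359 and 361 CPM in dKO, plasmacytoid dendritic cell markers 59.7 and 78.0 CPM in WT and 147 and 156 CPM in dKO, and B cell markers 103 and 37.9 CPM in WT and 13.2 and 50.7 CPM in dKO. Hepatocyte markers were at 11.1 CPM or less. Klrg1-positive cells were deeper than Klrg1-negative ones, with medians of 2286 against 1605 UMIs in WT and 1530.5 against 1343 in dKO, and 0 and 13 of them had a barcode that occurred in both libraries.

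Which genes went with *Klrg1* within the gated Tregs was asked by summing UMIs over the cells of each class in each library and testing the 4 sums with the library as a block. Of 7945 genes tested, 34 were called at an adjusted p under 0.05 (0.428%), 24 higher (0.302%) and 10 lower (0.126%) in Klrg1-positive cells, and 554 had an unadjusted p under 0.05. Of the 34, 30 had the same direction in both libraries and 3 were T cell receptor segments. Over all genes tested, 24.2% were higher and 27.4% lower in both libraries. The test favours genes whose libraries agree, so this agreement is not separate support for the calls. The test has 1 residual degree of freedom and its replicates are a WT and a dKO library. The number of calls depended on the setting: of 15 alternatives, 6 made 0 calls, among them thinning to 1000 UMIs, cells of 1000 to 2500 UMIs and leaving out the library block, so the calls below are descriptions of these libraries first.

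*Gzmb* and *Areg*, from the list of suppressive mediators, were among the genes called higher. *Gzmb*, the protease granzyme B, was at 564 CPM (461 to 684) in Klrg1-positive and 138 CPM (106 to 177) in Klrg1-negative WT cells, and at 378 CPM (346 to 412) and 207 CPM (189 to 227) in dKO. Thinned to 1000 UMIs, *Gzmb* was found in 28.8% of Klrg1-positive and 7.14% of Klrg1-negative WT cells and in 20.4% and 12.03% in dKO. Its log2 difference was 2.03 in WT and 0.87 in dKO, and 1.17 by edgeR (SE 0.161, adjusted p = 0.000281). The Klrg1-positive cells were above the Klrg1-negative ones in each library, with intervals that do not overlap. *Areg*, the growth factor amphiregulin, which Tregs use in tissue repair, was at 1204 CPM (1051 to 1374) against 346 CPM (293 to 404) in WT and at 886 CPM (837 to 937) against 709 CPM (674 to 744) in dKO. The difference by edgeR was 0.79 (SE 0.172, adjusted p = 0.0321), and most of it came from WT, with 1.80 against 0.32 in dKO. Thinned to 1000 UMIs, *Areg* was found in 42.4% (29.6 to 55.9) against 18.1% (12.8 to 24.5) of WT cells and in 28.6% (25.05 to 32.5) against 27.6% (24.9 to 30.5) of dKO cells, and it was called in 5 of 15 alternatives. In clone 1 *Areg* was low, at 246 CPM (162 to 358) in its Klrg1-positive cells, against 935 CPM (838 to 1040) in those of the other clones.

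Of the 14 suppressive mediators tested, *Gzmb* and *Areg* were the 2 called, both higher, and the list's median was 0.14 beside 0.00 over all genes. *Ctla4*, the inhibitory receptor that captures B7 ligands, was at 1362 and 1139 CPM in WT and 2344 and 2272 CPM in dKO. *Tigit*, another inhibitory receptor, was at 255 and 207 CPM in WT and 914 and 857 CPM in dKO. *Tgfb1* was at 190 and 214 CPM and at 230 and 247 CPM. The edgeR differences of these genes were 0.14, 0.14 and −0.10 with adjusted p of 0.809, 0.889 and 0.962.

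Of 11 cytotoxic genes tested, *Gzmb* was called higher and *Ifng* lower, and no other was called. *Ifng*, the interferon-γ gene, was at 97.6 CPM (57.9 to 154) in Klrg1-positive and 163 CPM (128 to 205) in Klrg1-negative WT cells and at 13.2 CPM (7.85 to 20.9) and 47.5 CPM (38.9 to 57.5) in dKO, a difference of −1.34 by edgeR (SE 0.275, adjusted p = 0.0215). *Prf1*, the pore-forming perforin, was at 0 and 4.46 CPM in WT and at 11.0 and 9.87 CPM in dKO. *Gzma* was at 0 and 24.5 CPM in WT and at 0.736 and 0.897 CPM in dKO. Perforin and granzyme A were thus found at far lower levels than granzyme B, on the CPM scale and not per length. Of the other killer lectin-like receptors, 4 of 13 listed genes passed the filter on low counts and none was called. *Klrk1*, which encodes NKG2D, was at 16.3 and 58.0 CPM in WT and at 5.15 and 9.42 CPM in dKO. *Klrd1*, which encodes CD94, was at 32.5 and 37.9 CPM and at 3.68 and 15.2 CPM. *Clec2d* and *Clec2i*, which encode ligands of such receptors, were the other genes tested, and the remaining 9 had at most 1 UMI in Klrg1-positive WT cells and at most 2.94 CPM in Klrg1-positive dKO cells.

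Among the genes called higher were 2 of the chemokine receptor list. *Cxcr6*, the receptor of CXCL16 that holds T cells in the liver sinusoids, was at 336 CPM (258 to 431) against 152 CPM (118 to 192) in WT and at 433 CPM (399 to 470) against 245 CPM (225 to 266) in dKO, a difference of 0.90 (SE 0.126, adjusted p = 0.000281 by edgeR). *Ccr1*, a receptor of CCL3 and CCL5, was at 16.3 and 4.46 CPM in WT, on 3 and 2 UMIs (log2 ratio 1.87, −1.26 to 5.45), and at 40.5 CPM (30.5 to 52.7) and 10.3 CPM (6.54 to 15.5) in dKO. These were the 2 called of the 10 tested from the list, which does not hold *Ccr3* and *Ccr7*, both called and described with other genes. *Ccr8*, a receptor of tissue Tregs, was at 141 and 183 CPM in WT and at 600 and 570 CPM in dKO. *Ccr2*, the receptor of CCL2, was at 309 and 216 CPM and at 222 and 182 CPM. The edgeR differences of *Ccr8* and *Ccr2* were 0.03 and 0.36, with adjusted p of 0.981 and 0.49.

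Of the 10 genes called lower, 2 belong to the list of resting and recirculating T cells. *Ccr7*, which guides T cells into lymph nodes, was at 43.4 CPM (18.7 to 85.5) in Klrg1-positive and 241 CPM (198 to 291) in Klrg1-negative WT cells and at 25.8 CPM (17.9 to 35.8) and 97.8 CPM (85.2 to 112) in dKO. Its difference was −2.04 (SE 0.223, adjusted p = 9.65e-06 by edgeR), the intervals do not overlap in either library, and it was called in 9 of 15 alternatives. Thinned to 1000 UMIs, *Ccr7* was found in 5.08% against 13.7% of WT cells and in 1.34% against 5.67% of dKO cells. *Tcf7*, which encodes TCF-1, was at 70.5 CPM (37.5 to 121) and 178 CPM (141 to 222) in WT and at 28.7 CPM (20.4 to 39.2) and 56.5 CPM (47.1 to 67.3) in dKO, a difference of −1.07 (SE 0.228, adjusted p = 0.0266 by edgeR). Of 13 tested genes of this list these 2 were called, both lower. The list's median was −0.27, and 10 of the 13 were lower in both libraries, where 27.4% of all genes tested were. *Klf2*, the regulator of *S1pr1*, and *Il7r* were exceptions, at 835 and 794 CPM and at 461 and 417 CPM in WT and at 364 and 381 CPM and at 302 and 265 CPM in dKO.

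**Figure D3:**
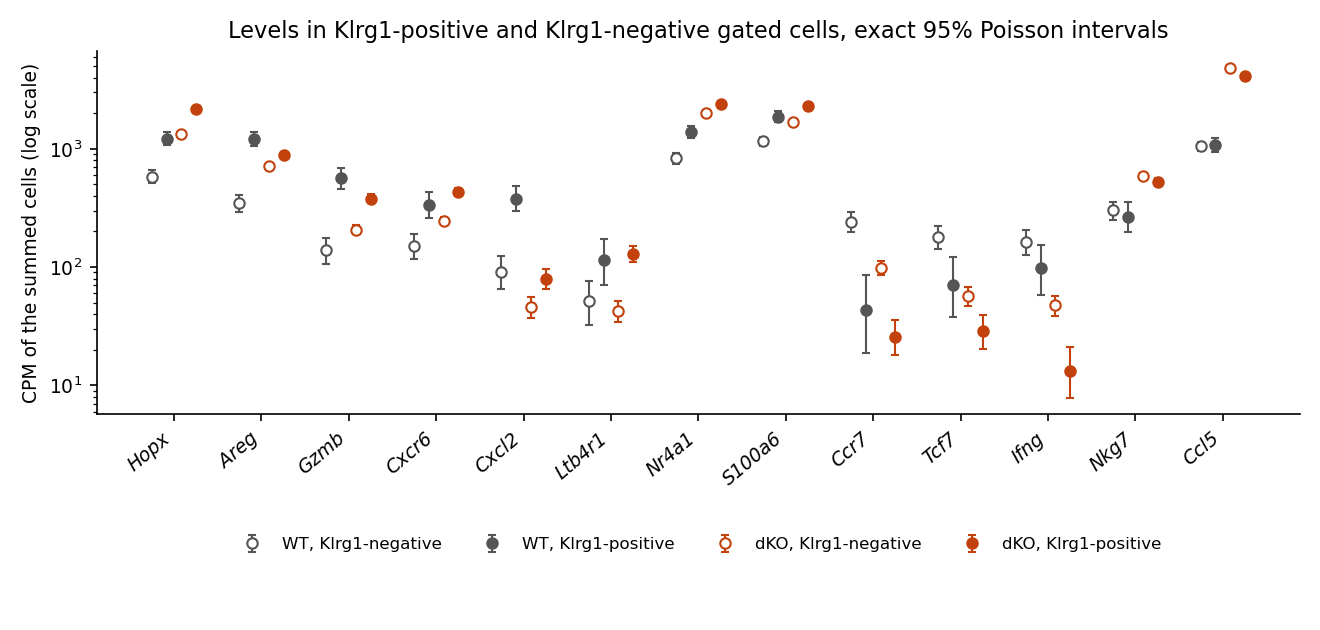
CPM on a log axis, with exact 95% Poisson intervals, of 13 genes in the summed Klrg1-negative (open) and Klrg1-positive (filled) gated cells of the libraries labelled WT (grey) and dKO (orange). *Hopx*, *Gzmb* and *Cxcr6* are higher and *Ccr7* and *Tcf7* lower in the Klrg1-positive cells of both libraries, while *Ccl5* stands at 1079 and 1050 CPM in WT and at 4112 and 4792 CPM in dKO.

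The genes with the largest mean ratio over both libraries, among those measured well enough, were *Gzmb*, *Cxcl2*, *Ltb4r1*, *Frmd5*, *Areg*, *Frmd4b*, *Cxcr6*, *Ncmap*, *Trf* and *Rln3*. All but *Frmd4b* and *Rln3* were called. *Ltb4r1*, which encodes the leukotriene B4 receptor BLT1, was at 114 CPM (70.5 to 174) and 51.3 CPM (32.5 to 76.9) in WT and at 129 CPM (111 to 150) and 42.6 CPM (34.5 to 52.1) in dKO, a difference of 1.53 (SE 0.192, adjusted p = 6.7e-05 by edgeR). *Cxcl2*, a neutrophil chemokine, was at 380 and 91.4 CPM in WT, where 8 of 67 Klrg1-positive cells held it, and at 79.5 and 45.7 CPM in dKO. Its edgeR difference of 1.28 was 0.24 among cells with exactly 1 TRB chain and 0.024 with 1 cell per clonotype. *Trf*, which encodes transferrin, was at 54.2 and 24.5 CPM and at 118 and 67.3 CPM. At the other end were *Ccr7*, *Txk*, *Tcf7*, *Ythdf3*, *Mdfic*, *Tmf1*, *Sesn1*, *Insyn2b*, *Hprt* and *Epb41*, of which *Ccr7* and *Tcf7* were called. *Txk*, a Tec-family kinase of T cells, was at 32.5 and 109 CPM in WT and at 32.4 and 57.8 CPM in dKO, with a difference of −0.99 (SE 0.243, adjusted p = 0.0862 by edgeR). *Mdfic* and *Hprt* had large ratios in WT, −1.72 and −1.70 on 6 and 10 UMIs in Klrg1-positive cells, and small ones in dKO, −0.21 and −0.12.

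Some called genes lay outside the rule for names and were picked out after their values were seen. *Hopx*, a homeodomain cofactor of effector and memory T cells, was at 1221 CPM (1066 to 1391) and 582 CPM (513 to 657) in WT and at 2171 CPM (2093 to 2250) and 1321 CPM (1273 to 1369) in dKO. Its difference was 0.84 (SE 0.0921, adjusted p = 9.65e-06 by edgeR), and it was called in 9 of 15 alternatives. After thinning to 1000 UMIs, *Hopx* was found in 45.8% of Klrg1-positive and 41.8% of Klrg1-negative WT cells and in 72.2% and 57.2% in dKO. *S100a6*, a calcium-binding protein of effector cells, was at 1871 and 1161 CPM in WT and at 2299 and 1689 CPM in dKO (0.55, SE 0.0824, adjusted p = 0.000575 by edgeR). With at least 2 UMIs of *Foxp3* the difference of *S100a6* was 0.24. *Hilpda*, a hypoxia-induced lipid droplet protein, was at 282 and 132 CPM and at 636 and 404 CPM (0.74, SE 0.121, adjusted p = 0.00191 by edgeR). *Glrx*, *Ern1* and *Kctd12* were called higher with differences of 0.60, 0.61 and 0.87.

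Several other calls rested on few cells or on 1 library. *Hspb1* had all 8 of its UMIs in Klrg1-positive WT cells in 1 cell, and *Hist1h1b* had 59.0% of its 61 UMIs there in 1 cell. *Ctsh* and *Myo1d* each had 3 UMIs in Klrg1-positive WT cells, and *Lgmn* had 1. *Ccr3*, an eotaxin receptor, was at 38.0 CPM (15.3 to 78.2) and 22.3 CPM (10.7 to 41.0) in WT and at 102 CPM (85.3 to 120) and 23.3 CPM (17.4 to 30.6) in dKO. In dKO it was at 237 CPM (155 to 347) in the Klrg1-positive cells of clone 1 and at 46.6 CPM (27.2 to 74.6) in those of the other clones. *Trav6-1* and *Trbv13-1*, the V genes of clone 1, were called higher as well. *Trav6-1* had 0 UMIs in WT and 253 against 30.05 CPM in dKO, and *Trbv13-1* was at 92.2 and 149 CPM in WT and at 337 and 139 CPM in dKO. *Xcl1* was the 1 call in the list of 6 chemokines, which does not hold *Cxcl2* and whose median was −0.64. The remaining lower calls were *Xcl1*, *Tbc1d4*, *Igf1r*, *H2-Aa*, *Nrgn*, *4833407H14Rik* and the segment *Trbv13-2*.

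Markers of other cells moved with some of the lower genes. *Xcl1*, a chemokine of NK and CD8+ T cells, was at 38.0 and 129 CPM in WT and at 8.09 and 24.7 CPM in dKO (−1.65, SE 0.327, adjusted p = 0.0167 by edgeR). The NK markers, summed without *Xcl1*, were at 10.8 against 221 CPM in WT and at 33.8 against 42.6 CPM in dKO. The same markers summed to 4478 CPM in WT and 5558 CPM in dKO cells with at least 5 UMIs of *Siglech*, so the sum is not particular to NK cells. This does not hold for each marker. *Klra8* and *Klra4* were at 0 in those WT cells and *Klra4* in those dKO cells, while all 7 markers were found in the Klrg1-negative WT cells. The part of the NK markers in the differences of *Xcl1* and *Ifng* was not tested. *H2-Aa*, an MHC class II chain of antigen-presenting cells, was at 54.2 and 66.9 CPM in WT and at 83.9 and 159 CPM in dKO (−0.85, SE 0.18, adjusted p = 0.0266 by edgeR), and 1 cell held 54.4% of its 114 UMIs in Klrg1-positive dKO cells. It was the call among 4 MHC class II genes, and B cell markers were lower with it in dKO but not in WT. Their part was not tested either.

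Of 18 genes induced by T cell receptor signals that were tested, *Nr4a1* was called, with 1389 CPM (1224 to 1570) and 832 CPM (749 to 920) in WT and 2380 CPM (2298 to 2463) and 1992 CPM (1933 to 2051) in dKO (0.44, SE 0.0948, adjusted p = 0.0321 by edgeR). *Nr4a1* encodes a nuclear receptor whose level follows T cell receptor signals. *Nr4a2* was at 146 and 181 CPM in WT and at 420 and 465 CPM in dKO, and *Nr4a3* at 304 and 330 CPM and at 329 and 309 CPM. Their differences were −0.16 and 0.05, with adjusted p of 0.876 and 0.98 by edgeR. Of the 18 genes 12 were higher in both libraries, where 24.2% of all genes tested were.

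None of the genes of 9 lists was called. Of 10 Treg identity genes tested the median was 0.06. *Ikzf2*, which encodes Helios, was at 732 and 662 CPM in WT and at 1167 and 1253 CPM in dKO, and *Il2ra*, the CD25 gene, was at 309 and 183 CPM and at 198 and 173 CPM. The 16 effector transcription factors had a median of 0.15. *Batf* was at 114 and 134 CPM in WT and at 227 and 219 CPM in dKO, and *Gata3*, which is high in tissue Tregs with the IL-33 receptor, was at 163 and 140 CPM and at 192 and 122 CPM (0.58, adjusted p = 0.131 by edgeR). *Pparg*, the regulator of fat tissue Tregs, was at 21.7 and 2.23 CPM in WT on 4 and 1 UMIs and at 41.9 CPM (31.8 to 54.3) and 18.4 CPM (13.2 to 24.9) in dKO, with an adjusted p of 0.0738 by edgeR.

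Among the remaining lists, the 9 genes of the TNF receptor superfamily had a median of 0.13, the 12 costimulatory and checkpoint receptors −0.09, the 14 cytokine receptors −0.14, the 12 interferon genes −0.05 and the 7 cell cycle genes 0.27. *Tnfrsf9*, which encodes 4-1BB, was at 673 and 339 CPM in WT and at 1186 and 1078 CPM in dKO. *Icos* was at 917 and 780 CPM and at 834 and 756 CPM. The list of integrins and retention genes had *S100a6* as its 1 call of 14, while *Itgae*, the CD103 chain that binds E-cadherin as KLRG1 does, was at 146 and 91.4 CPM in WT and at 191 and 152 CPM in dKO (0.39, adjusted p = 0.518 by edgeR). E-cadherin itself, *Cdh1*, had 0 UMIs in WT and at most 0.897 CPM in dKO. *Inpp5d* and *Ptpn11*, which encode the phosphatases SHIP-1 and SHP-2 that act downstream of ITIM receptors, were at 277 and 303 CPM and at 43.4 and 44.6 CPM in WT and at 213 and 197 CPM and at 51.5 and 55.2 CPM in dKO.

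The members just inside the threshold of 1 *Klrg1* UMI and the cells just outside it can be set side by side. In dKO *Hopx* was at 1321 CPM (1273 to 1369) with 0, 2055 CPM (1934 to 2181) with 1, 2037 CPM (1882 to 2200) with 2 and 2370 CPM (2239 to 2506) with at least 3 UMIs of *Klrg1*. *Ltb4r1* was at 42.6, 93.2, 117 and 174 CPM and *Ccr3* at 23.3, 64.7, 85.5 and 149 CPM over the same 4 bins. Each bin above 0 stood over the cells without *Klrg1* for these genes in dKO, but not for every gene called higher. *Areg* was at 709, 968, 681 and 927 CPM in dKO, and *Cxcr6* at 152, 260, 112 and 906 CPM in WT. *Ccr7* was at 97.8 CPM (85.2 to 112) in dKO, then 22.8 CPM (11.8 to 39.9), 50.7 CPM (29.0 to 82.3) and 13.5 CPM (5.44 to 27.9). *Ccl5* was at 4792, 4518, 4127 and 3691 CPM in dKO and at 1050, 705, 2606 and 219 CPM in WT. In WT the bins held 224, 35, 20 and 12 cells, and *Gzmb* was at 138 CPM (106 to 177), 417 CPM (304 to 558), 472 CPM (292 to 721) and 1187 CPM (840 to 1629). Median depth differed over the dKO bins, with 1343, 1355, 1588 and 1833.5 UMIs.

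**Figure D4:**
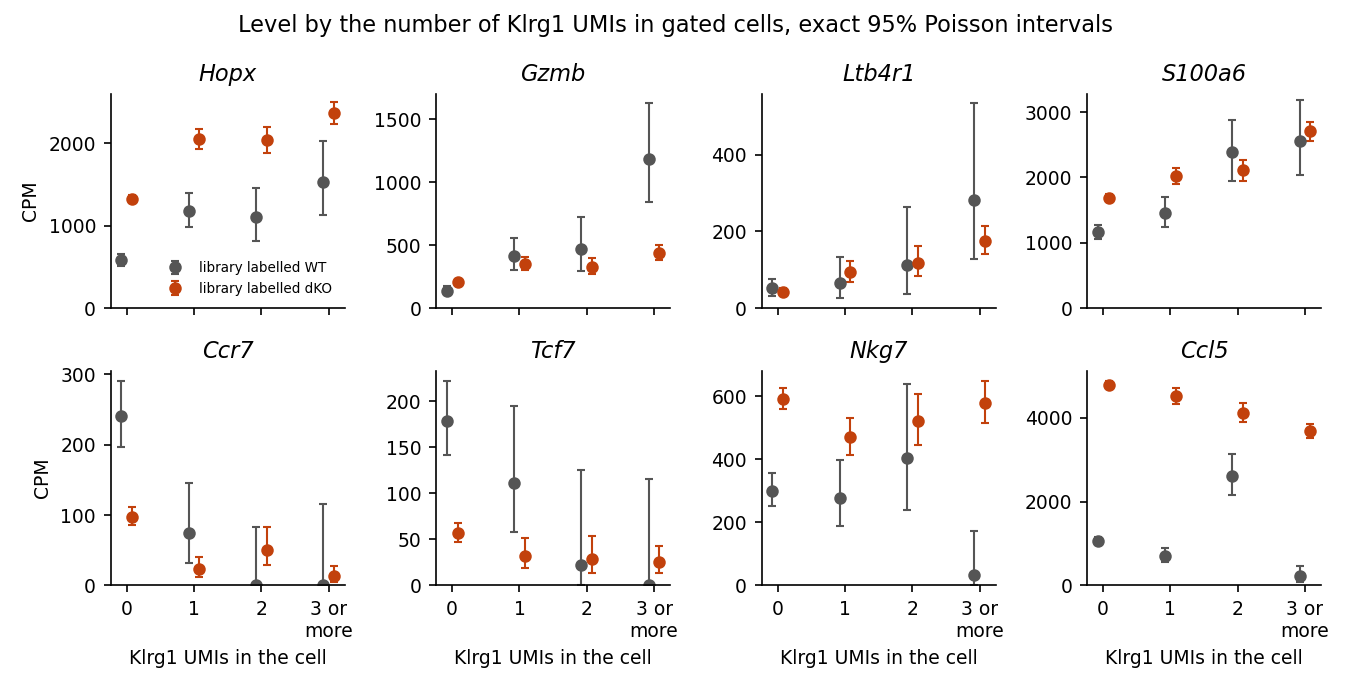
CPM of 8 genes in gated cells with 0, 1, 2 and at least 3 UMIs of *Klrg1*, with exact 95% Poisson intervals, for the libraries labelled WT (grey) and dKO (orange). *Hopx*, *Gzmb*, *Ltb4r1* and *S100a6* are higher with 1 UMI than with 0 in both libraries and *Ccr7* and *Tcf7* lower. The intervals for 0 and 1 UMI overlap for *Ltb4r1*, *S100a6* and *Tcf7* in WT and for *Tcf7* in dKO. The WT bins hold 35, 20 and 12 cells with *Klrg1*.

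Klrg1-positive cells of clone 1 could be set beside Klrg1-positive cells of the other clones in dKO, 68 and 148 cells with medians of 1359 and 2102.5 UMIs. Clone 1 had *Cxcr6* at 748 CPM (595 to 928) against 340 CPM (283 to 405), and *Tigit* at 1340 CPM (1132 to 1575) against 677 CPM (595 to 767). *Gzmb* was lower in clone 1, at 210 CPM (133 to 315) against 398 CPM (336 to 468). *Hopx* was at 1796 CPM (1554 to 2065) against 2196 CPM (2047 to 2354). The difference of *Hopx* between the classes was there among the other clones, at 1235 CPM (1157 to 1317) in their 378 Klrg1-negative cells, as was that of *Gzmb*, at 199 CPM (168 to 233). For *Cxcr6* and *S100a6* the intervals of the classes overlapped among the other clones. *Cxcr6* was at 254 CPM (220 to 293) in their Klrg1-negative cells. *S100a6* was at 2350 CPM (2195 to 2513) in Klrg1-positive and 2128 CPM (2025 to 2234) in Klrg1-negative cells of the other clones. *Batf* was at 255 CPM (170 to 369) in clone 1 and at 247 CPM (198 to 303) in the others. Clone 1 is 1 clone, and its values have no replicate.

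What differed between the libraries within Klrg1-positive cells was asked over the 1863 genes that had at least 100 CPM in one library and no fewer than 5 UMIs in the other. Of these, 197 (10.6%) differed by at least 2-fold, 103 higher (5.53%) and 94 lower (5.05%) in dKO. No test was possible. Among the highest log2 ratios of dKO over WT were those of *Mt1*, *Isg20*, *Camk2n1*, *Cst7*, *Plin2*, *Spint2*, *Cd4*, *Ccr8* and *Lilrb4a*. *Ccr8* was at 600 CPM (560 to 643) in dKO and 141 CPM (92.1 to 207) in WT, a log2 ratio of 2.09 (1.53 to 2.71), with 1.64 in Klrg1-negative cells. *Cst7*, which encodes the cysteine protease inhibitor cystatin F, had a ratio of 2.36 (1.42 to 3.50), with 2.02 in Klrg1-negative cells. *Cd4*, which all these cells should carry, was at 993 and 228 CPM, a ratio of 2.12 (1.68 to 2.60), with 2.17 in Klrg1-negative cells. *Mt1*, which encodes a metallothionein, had 2.98 (1.84 to 4.44) on 6 WT UMIs, with 3.96 in Klrg1-negative cells.

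The lowest ratios were those of *Hist1h2ae*, *Cd40lg*, *Hist1h1b*, *Hist1h1d*, *Hist1h4d*, *Tnfsf11*, *Lmna*, *Tesc*, *Cxcl2* and *Gm2682*. For the 4 histone genes 1 WT cell held 78.8%, 59.0%, 50% and 42.9% of the UMIs in Klrg1-positive WT cells. *Cd40lg*, the CD40 ligand of helper T cells, was at 429 CPM in 19 of 67 WT cells and at 26.5 CPM in dKO, a ratio of −4.02 (−4.63 to −3.43), with −2.40 in Klrg1-negative cells. *Tnfsf11*, which encodes RANKL, had −2.62 (−3.36 to −1.87), with −0.53 in Klrg1-negative cells, and *Lmna*, which encodes lamin A, had −2.58 (−3.22 to −1.93) with −0.90. The intervals of *Cd40lg*, *Tnfsf11* and *Lmna* do not overlap between the classes.

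Of the listed genes, *Gzmb* and *Areg*, higher with *Klrg1*, stood the other way between the libraries in the 2 classes. *Gzmb* had a log2 ratio of dKO over WT of −0.58 (−0.88 to −0.26) in Klrg1-positive and 0.58 (0.20 to 0.99) in Klrg1-negative cells, and *Areg* of −0.44 (−0.65 to −0.23) and 1.04 (0.80 to 1.28). *Tigit* had 1.84, *Fgl2* 1.39 and *Itgb8* 2.04 in Klrg1-positive cells and 2.05, 2.29 and 2.67 in Klrg1-negative cells. These 3 were the suppressive mediators past 2-fold of 8 measured, all higher in dKO, where 5.53% of all 1863 genes were. The resting genes past 2-fold were 4 of 6 measured, *Lef1*, *Bach2*, *Foxp1* and *Klf2*, with ratios of −2.10, −1.54, −1.51 and −1.20. Of all 1863 genes, 5.05% were lower in dKO by at least 2-fold. *Ccl5* had 1.93 (1.73 to 2.14), *Nkg7* 0.98 (0.56 to 1.43), *Nr4a1* 0.78 (0.59 to 0.97), *Nr4a2* 1.52 (0.96 to 2.13) and *Nr4a3* 0.11 (−0.29 to 0.54). *Lag3*, an inhibitory receptor that binds MHC class II, had 0 UMIs in Klrg1-positive WT cells, where 3 UMIs are 16.3 CPM, and 127 CPM in dKO.

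**Figure D5:**
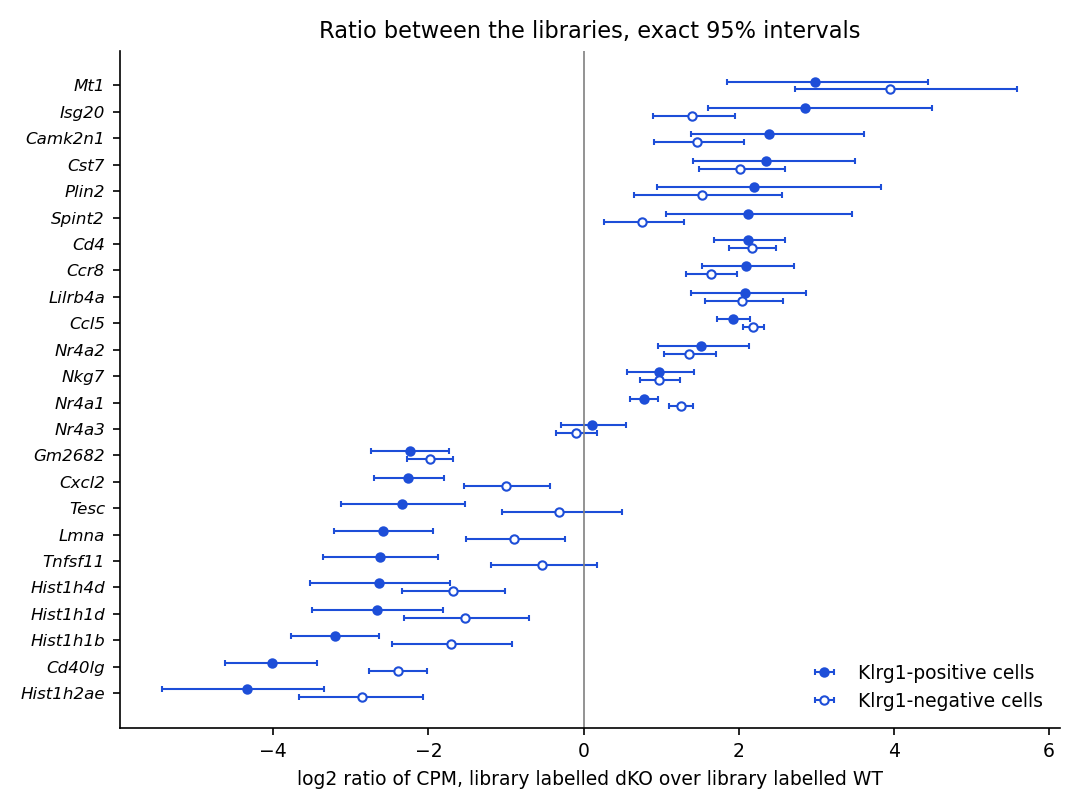
Log2 ratio of CPM of the library labelled dKO over the library labelled WT in Klrg1-positive (filled) and Klrg1-negative (open) gated cells, with exact 95% intervals, for 9 of the 10 highest and the 10 lowest genes in Klrg1-positive cells and for *Ccl5*, *Nkg7*, *Nr4a1*, *Nr4a2* and *Nr4a3*. *Cd4* stands at 2.12 and 2.17, and *Cd40lg* at −4.02 and −2.40.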

How the data were processed

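RNA and receptor libraries of the same sorted hepatic CD4+ T cells were made with a droplet kit. The authors deposited UMI counts per gene and cell, made with Cell Ranger 7.0.1 on mm10 and not normalized, and receptor tables with the contigs of each cell. Positions come from GENCODE M21. As in the study, a cell needed over 200 genes and less than 5% of its UMIs from mitochondrial genes. Doublets were not called: 1 WT and 4 dKO Klrg1-positive cells had at least 2 TRB chains. The clonotype was that of the TRB contig with the most UMIs.

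Counts were summed per library and class and tested with edgeR 4.0.16 (quasi-likelihood, TMM, filterByExpr, Benjamini-Hochberg over all genes tested, rule genes left out) in R 4.3.3, with DESeq2 1.42.0 as an alternative. The SE is the log2 difference divided by the square root of the quasi F. CPM, log2 ratios and exact intervals were computed in Python 3.11.15 with scipy 1.17.1. The test was run on simulated data first. A count of 0 allows up to 3 UMIs, which is 16.3 CPM in Klrg1-positive WT and 2.21 CPM in Klrg1-positive dKO cells.

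Genes were named by a rule: the 10 highest and 10 lowest mean ratios of both libraries (at least 50 CPM in the higher and 5 UMIs in the lower class, same direction), the 10 highest and 10 lowest ratios of dKO over WT (at least 100 CPM and 5 UMIs), list members as examples, and the markers and *Nr4a* genes. Receptor segments, immunoglobulins, and mitochondrial or ribosomal protein genes were not named by it. The cells and the 17 lists were chosen with earlier results of these data known. List members were to be named from the highest level down, but some examples, and the genes shown by the number of *Klrg1* UMIs and by clone, were chosen after their values were seen, as were 2 alternatives, the legacy edgeR dispersions and leaving out cells over 5000 UMIs. Single genes that the rule names but the text leaves out are not reported here.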

Additional observations from a re-analysis of the deposited data

Results flagged for a closer look

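*Cd40lg*, the CD40 ligand, had opposite directions in the libraries. Its log2 ratio of Klrg1-positive over Klrg1-negative cells was 0.62 in WT (429 against 279 CPM) and −0.998 in dKO (26.5 against 52.9 CPM). *Cd69*, an early activation and retention marker, had 0.57 in WT (494 against 332 CPM) and −0.38 in dKO (155 against 201 CPM). Each library's interval excludes 0 for both genes, but the difference between the libraries was not tested, since each genotype has 1 library.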

How the results depend on the processing

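The number of genes called between Klrg1-positive and Klrg1-negative cells, 34 by edgeR, depended on the setting. It was 0 without a filter on low counts, without the library block, with cells thinned to 1000 UMIs, with cells of 1000 to 2500 UMIs, with at least 2 UMIs of *Foxp3* and with at least 2 UMIs of *Klrg1*, where edgeR gave 517, 77, 262, 251, 247 and 305 genes at an unadjusted p under 0.05. It was 2 with DESeq2, of 30 at an unadjusted p under 0.05, 7 without cells over 5000 UMIs, 14 with 1 cell per clonotype and 98 with the gate on *Foxp3* and *Klrg1* alone. Of the 34 genes, 33 were called without the largest clonotype, among 42, and 29 with the wider gate. Leaving out the largest clonotype removes only its cells with a TRB read: *Trav6-1* was still at 274 CPM in Klrg1-positive and 36.3 CPM in Klrg1-negative dKO cells without one, against 830 CPM in the clone. Over 48 named genes and the alternatives, 380 of 686 values kept their side of the threshold and direction, 294 lost the call, 1 gained it and 11 changed sign. The 34 called genes kept their direction in each of these 6 settings without a call, as far as they were tested there. This held for 34 of 34 without the filter or the block and for 30 of 30 after thinning and in the UMI window. It also held for 29 of 29 with more *Foxp3* and 32 of 32 with more *Klrg1*. These settings refit the same sums or use part of the same cells and UMIs, so a kept direction is not separate support for the calls.

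None of the 11 changes of sign was of a called gene except that of *Trbv13-1*, −0.22 with 1 cell per clonotype. *Ccl5* was at 0.029 with at least 2 UMIs of *Klrg1*, 0.0056 with the wider gate, 0.012 with exactly 1 TRB chain and 0.14 with 1 cell per clonotype. *Nr4a3* was at −0.067 with cells of 1000 to 2500 UMIs, −0.31 with at least 2 UMIs of *Klrg1* and −0.014 without cells over 5000 UMIs. *Nr4a2* was at 0.069 after thinning, and with exactly 1 TRB chain *Mdfic* was at 0.0093 and *Rln3* at −0.21. Called differences that shrank by over 1.5 times with the wider gate included those of *Xcl1*, to −0.55, *Ifng*, to −0.56, *Ctsh*, to 0.30, and *Hist1h1b*, to 0.18. With 1 cell per clonotype *Trf* was at 0.32, *Cxcl2* at 0.024 and *Ltb4r1* at 1.01. With at least 2 UMIs of *Foxp3*, *S100a6* was at 0.24 and *Tbc1d4* at −0.62, against 0.55 and −1.33 in the main test. *H2-Aa* was at −0.35 with at least 2 UMIs of *Klrg1*, and *Areg* at 0.51 after thinning to 1000 UMIs.

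Between the libraries, 197 genes were past 2-fold, and 311 after thinning to 1000 UMIs and 313 with at least 2 UMIs of *Klrg1*. The share of gated cells with *Klrg1*, 23.0% in WT and 34.6% in dKO, was 13.7% and 27.6% after thinning to 1000 UMIs, 11.0% and 19.4% with at least 2 UMIs, 32.0% and 41.5% with the wider gate and 31.2% and 31.2% with 1 cell per clonotype. It was 31.1% in WT with at least 2 UMIs of *Foxp3*, 30.8% in WT with exactly 1 TRB chain and 32.5% in dKO without the TRB-positive cells of the largest clonotype. The difference of 11.6 percentage points was 11.0 after thinning to 2000 UMIs, 4.04 with at least 2 UMIs of *Foxp3*, 4.97 with exactly 1 TRB chain and −0.0409 with 1 cell per clonotype. The cause was not tested. The 67 WT cells with 184349 UMIs limit each WT value. The classes of cells were paired by library in the main test, and without this block 0 genes were called. Between the genotypes, no paired analysis was possible because each has 1 library.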
